A study of Mus musculus with 2 samples.

Results

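The 32 genes described here encode the enzymes of glycolysis, glucose and lactate transporters, kinases that regulate the pathway, and other targets of the hypoxia-inducible factor (HIF), together with Hif1a itself. They were listed by name, and each matched a row of the 32285 genes in both files. By role they were 17 enzymes, 4 transporters, 3 regulatory kinases, 7 HIF targets that encode no enzyme of glycolysis, and 1 factor. Their transcripts were counted in single cells of mouse cornea and limbus, the border zone of the cornea, with 1 droplet library labelled wild type and 1 labelled Pax6 +/-, called the library labelled Pax6het below.

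Pax6 is a transcription factor of eye development, and the heterozygous state is set against the wild type to ask what a lowered gene dose does to the ocular surface. The series names 2 mice per genotype, with no word on pooling and with no strain, age, sex or allele. Lens, retina and iris had been removed and most conjunctiva dissected away before a warm digestion with liberase and then trypsin.

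Glycolysis splits glucose to pyruvate in the cytosol, and lactate dehydrogenase turns pyruvate to lactate when it is not burned in mitochondria. When oxygen is short, the prolyl hydroxylases that mark HIF-1 alpha for destruction slow down, and the factor switches on glycolytic enzymes, glucose uptake and a set of other genes. The corneal epithelium has no blood vessels of its own, takes its oxygen largely from the air, and is known for strong glycolysis.

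The wild-type library held 10154 kept cells (median 10218.5 unique molecular identifiers, UMIs) and the library labelled Pax6het held 9542 (median 12537). Epithelial cells, with at least 30 UMIs of Krt5, Krt14 and Krt15 together per 10000, numbered 8472 and 5760. All 3 keratins were above 20 counts per 1000000 (CPM) in both libraries. The cells were chosen by the sum of these keratins, so this is no separate check of the class. The targeted gene went against a simple reading of the label, since Pax6 stood at 373 CPM in the wild-type epithelium and at 754 CPM in the epithelium labelled Pax6het. The states of the epithelium were unevenly filled. Krt12-high cells, which carry the corneal keratin, were divided into Krt14-high (3699 and 324), Krt14-low (3698 and 32) and Krt13-positive (603 and 40). Gpha2-positive cells, which carry a limbal marker, numbered 385 and 1979. Krt12-low cells were Krt4-positive (31 and 964) or other (56 and 2421). The limits cut through ranges of cells, and 1438 and 272 cells lay within 2-fold of the Krt14 limit and 549 and 1376 within 2-fold of the Gpha2 limit. The same count was 449 and 594 for Krt13 and 73 and 1000 for Krt4. Xist without Y-linked UMIs was found in 8093 wild-type epithelial cells and in 2873 labelled Pax6het, where another 2102 had Y-linked UMIs and no Xist. Of all barcodes, 33 occurred in both libraries. With 1 library per genotype no test was possible. Every ratio is the library labelled Pax6het over wild type, its 95% interval covers counting error only, and "higher" or "lower" means at least 2-fold by size with at least 20 CPM in either library.

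In the epithelium as a whole, most glycolytic enzymes had a ratio above 1.5 and 5 of them were at least 2-fold higher in the library labelled Pax6het. HIF targets outside the pathway went both ways, and Hif1a had a ratio near 1. Of the 32 members 24 reached 20 CPM, and of these 7 were higher (13.5% of 7097 genes were) and 2 were lower (6.51% were). The 7 were the enzymes Gpi1, Pfkl, Pfkp, Tpi1 and Ldhb and the HIF targets Ndufa4l2 and Ddit4, and the 2 were Egln3 and Adm. At a lower limit of 1.5-fold, 12 of the 15 enzymes past 20 CPM were on the higher side, against 25.2% of all genes, and 0 were 1.5-fold lower, against 12.5%. The median log2 ratio of the 15 enzymes was 0.94, that of the 5 HIF targets past 20 CPM was 0.46, and that of all genes was 0.18. Scaling by edgeR TMM factors lowered every epithelial log2 ratio by 0.31 and turned the split of all genes from 961 higher and 462 lower into 626 and 738. With it the enzyme median was 0.63 and that of the HIF targets 0.15, and Gpi1 and Tpi1 came to log2 ratios of 0.89 each, inside 2-fold.

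**Figure D1:**
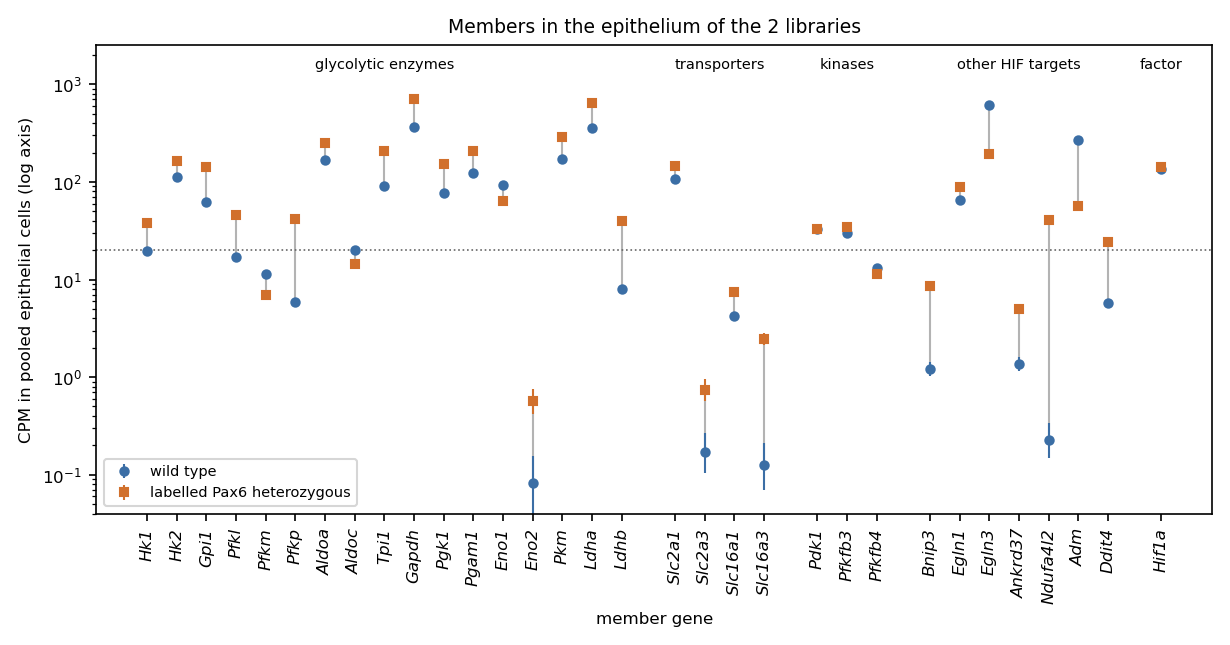
Level of each of the 32 members in pooled epithelial cells of the wild-type library (circles) and the library labelled Pax6het (squares), in CPM on a log axis, by role; bars are exact 95% Poisson intervals and the dotted line marks 20 CPM. Of the 15 enzymes past 20 CPM 5 are at least 2-fold higher in the second library and 10 are within 2-fold, Egln3 and Adm are lower, and Ndufa4l2 is at 0.227 and 40.6 CPM.

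Hexokinase, which traps glucose in the cell as glucose 6-phosphate, was counted from 2 genes. Hk2 stood at 112 CPM in the wild-type epithelium and at 164 CPM in that labelled Pax6het, a ratio of 1.46 (1.42 to 1.49). Hk1 stood at 19.5 and 37.6 CPM (ratio 1.92, 1.82 to 2.03). Neither reached 2-fold. Gpi1, the isomerase of the next step, was at 62.4 and 143 CPM (ratio 2.29, 2.22 to 2.36). It stayed between 1.79 and 2.08 in all 6 epithelial states compared one with one.

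Phosphofructokinase, the committing step of glycolysis, differed in isozyme makeup as well as in level. Pfkp, the platelet-type subunit, stood at 5.83 CPM in wild-type epithelium (642 UMIs) and at 42.1 CPM in epithelium labelled Pax6het (3478 UMIs), a ratio of 7.22 (6.63 to 7.86). Pfkl, the liver-type subunit, stood at 17.0 and 45.7 CPM (ratio 2.69, 2.55 to 2.85). Pfkm, the muscle-type subunit, was under 20 CPM in both, at 11.4 and 6.86 CPM. Pfkp thus made up 17.1% (15.9 to 18.3) of the UMIs of the 3 genes in the first library and 44.4% (43.3 to 45.6) in the second. UMIs were not divided by transcript length, so these shares compare libraries and classes and not amounts of the subunits.

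Of the lactate dehydrogenase genes, Ldhb was higher and Ldha was inside 2-fold. Ldhb, the heart-type subunit, stood at 8.07 CPM (889 UMIs) and 40.0 CPM (3306 UMIs), a ratio of 4.96 (4.60 to 5.34). Ldha, the muscle-type subunit and a standard HIF target, stood at 353 and 645 CPM (ratio 1.83, 1.80 to 1.85). The Ldhb share of the pair was 2.23% (2.09 to 2.38) and 5.84% (5.64 to 6.03).

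Pfkp and Ldhb had the widest enzyme ratios past 20 CPM, and their start regions are shown for that reason. Pfkp (ENSMUSG00000021196) lies on the minus strand of chromosome 13, and its window is chr13:6648722-6649021. Ldhb (ENSMUSG00000030246) lies on the minus strand of chromosome 6, with the window chr6:142507908-142508207. Each window runs from 250 bases before to 50 bases after the RefSeq start in GRCm38.p6, 5′ to 3′ along the gene. Capitals mark ACGTG or GCGTG, the core letters of a HIF response element, or their reverse complement.
Pfkp: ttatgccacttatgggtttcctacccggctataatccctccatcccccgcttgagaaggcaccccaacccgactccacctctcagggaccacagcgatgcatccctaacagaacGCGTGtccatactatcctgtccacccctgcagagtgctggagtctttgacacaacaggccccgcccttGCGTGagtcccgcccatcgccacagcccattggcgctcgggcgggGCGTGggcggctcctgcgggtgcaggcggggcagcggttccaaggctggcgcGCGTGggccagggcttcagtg
Ldhb: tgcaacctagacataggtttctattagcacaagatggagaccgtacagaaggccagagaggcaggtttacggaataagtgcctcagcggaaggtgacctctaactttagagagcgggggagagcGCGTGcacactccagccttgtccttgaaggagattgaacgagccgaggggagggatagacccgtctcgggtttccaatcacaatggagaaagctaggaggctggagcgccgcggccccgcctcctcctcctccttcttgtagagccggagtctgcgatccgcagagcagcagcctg
The Pfkp window holds 4 such matches and the Ldhb window 1. A match is a run of letters and not a measured site.

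The enzymes of the middle and end of the pathway were closer together. Tpi1, triosephosphate isomerase, stood at 91.0 and 209 CPM (ratio 2.29, 2.24 to 2.35). Gapdh, which makes the first NADH of the pathway, stood at 367 and 705 CPM (1.92, 1.89 to 1.94), and Pgk1, which makes its first ATP, at 77.2 and 153 CPM (1.98, 1.93 to 2.04). Both lay just inside the 2-fold limit. Pgam1, phosphoglycerate mutase, stood at 122 and 205 CPM (1.68), and Pkm, pyruvate kinase, at 172 and 291 CPM (1.69). The aldolase gene Aldoa stood at 167 and 253 CPM (1.52, 1.49 to 1.55). These 6 differ in level but share a direction. Gapdh, Ldha and Pgk1 have 140, 5 and 4 near-identical transcript copies in the genome annotation (at least 95% identity over at least 90 bases), so their levels are uncertain. The same holds for Bnip3 with 3 copies, for Slc2a3 with 75, and for Gpi1, Tpi1, Pgam1, Pkm and Ldhb with 1 each.

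Enolase and the brain-type aldolase went the other way. Eno1 stood at 93.4 and 63.9 CPM (ratio 0.685, 0.662 to 0.708), inside 2-fold. Eno1 shares near-identical sequence with 3 annotated transcripts, of which Eno1b is listed in the files and stood at 0.980 and 3.79 CPM. Aldoc stood at 20.1 and 14.5 CPM (ratio 0.719, 0.669 to 0.771). Eno2, the neuronal enolase, held 9 and 47 UMIs and stayed under 1 CPM.

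Among the transporters, only Slc2a1 reached 20 CPM. Slc2a1, the main glucose carrier of epithelia, stood at 108 CPM in the wild-type epithelium and at 147 CPM in that labelled Pax6het (ratio 1.36, 1.33 to 1.40). The lactate carriers stayed low, with Slc16a1 at 4.25 and 7.39 CPM and Slc16a3 at 0.127 and 2.46 CPM. The glucose carrier Slc2a3 was under 1 CPM in both. Of the regulatory kinases, Pdk1, which shuts pyruvate out of the citrate cycle, stood at 33.1 and 32.7 CPM (ratio 0.988, 0.940 to 1.04). Pfkfb3, which makes the activator of phosphofructokinase, stood at 30.3 and 34.8 CPM (1.15, 1.09 to 1.21). Pfkfb4 stood at 13.2 and 11.3 CPM. None of the 3 kinases differed by as much as the typical enzyme.

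The HIF targets outside glycolysis held both the highest and the lowest ratios of all members. Ndufa4l2, a mitochondrial protein that lowers respiration in hypoxia, had 25 UMIs in the wild-type epithelium (0.227 CPM) and 3353 in that labelled Pax6het (40.6 CPM), a ratio of 179 (121 to 277). Ddit4, an inhibitor of mTOR complex 1, stood at 5.76 and 24.2 CPM (4.20, 3.84 to 4.60). Egln3, a prolyl hydroxylase that acts on HIF and is itself a HIF target, stood at 619 CPM (68228 UMIs) and 192 CPM (15847 UMIs), a ratio of 0.309 (0.304 to 0.315). Adm, the vasoactive peptide adrenomedullin, stood at 267 and 56.3 CPM (0.211, 0.204 to 0.217). Egln1, the main HIF prolyl hydroxylase, stood at 64.6 and 88.8 CPM (1.38, 1.33 to 1.42). Bnip3, a mitophagy receptor, and Ankrd37 stayed under 20 CPM, at 1.22 and 8.53 CPM and at 1.35 and 5.00 CPM. Hif1a, whose product is regulated mainly by its destruction, stood at 136 and 141 CPM (1.03, 1.01 to 1.06). With TMM factors the log2 ratios of Hif1a and Pfkfb3 in the epithelium turned negative. Reads of a gene and its antisense neighbour could not be told apart from the sources used here. This applies to Pfkp (Pitrm1), Ndufa4l2 (Shmt2), Adm (Gm28863), Hif1a (Gm15283), Tpi1 (Spsb2), Hk2 (Gm17034) and Pfkfb3 (Gm10851). Antisense neighbours are also annotated for Hk1, Pfkm, Aldoa, Gapdh, Slc2a1, Bnip3 and Ankrd37.

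The start regions of the 2 members that were lower are shown for comparison, with the same marks. Egln3 (ENSMUSG00000035105; minus strand of chromosome 12) has the window chr12:54203825-54204124. Adm (ENSMUSG00000030790; plus strand of chromosome 7) has the window chr7:110627407-110627706.
Egln3: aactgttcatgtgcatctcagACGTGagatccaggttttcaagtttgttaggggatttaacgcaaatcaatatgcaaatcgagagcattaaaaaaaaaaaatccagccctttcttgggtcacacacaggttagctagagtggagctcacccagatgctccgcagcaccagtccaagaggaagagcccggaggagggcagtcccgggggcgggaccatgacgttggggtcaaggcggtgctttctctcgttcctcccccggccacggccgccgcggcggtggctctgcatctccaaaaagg
Adm: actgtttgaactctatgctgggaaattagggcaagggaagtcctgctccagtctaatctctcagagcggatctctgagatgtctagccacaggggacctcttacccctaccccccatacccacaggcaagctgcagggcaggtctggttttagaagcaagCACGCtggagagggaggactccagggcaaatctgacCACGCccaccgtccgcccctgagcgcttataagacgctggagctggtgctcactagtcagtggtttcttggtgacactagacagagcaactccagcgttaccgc
Egln3 holds 1 match and Adm 2, so members with higher and with lower levels both carried the letters. RefSeq windows were found for 30 of the 32 members, 43 windows in all, and 27 of the 30 genes had at least 1 match. On either strand, 81.4% of the member windows held ACGTG or GCGTG. The share was 43.8% of all 32851 windows and 73.6% of the 8701 windows with at least 20 CpG, the median of the member windows. Both motifs end in the same 4 letters, and ACGTG on one strand can overlap another on the other strand.

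Free RNA was not measured directly, and levels in stromal and vessel cells and sums of their markers are given beside these results. Ndufa4l2 stood at 2.74 CPM (1 UMI) and 1.76 CPM (4 UMIs) in blood endothelial cells, and its level was 416 and 543 CPM in mural cells, the contractile cells of small vessels. Keratocytes, divided by Kera as described below, also held it. It stood at 117 and 80.3 CPM in Kera-high cells (0.689, 0.610 to 0.779) and at 43.8 and 51.8 CPM in Kera-low cells (1.18, 0.839 to 1.72). The part of stromal RNA in its epithelial ratio was not tested. The summed level of 8 mural markers in the epithelium was 123 and 122 CPM, with none at 0, beside 25747 and 22422 CPM in mural cells. Of these 8 markers 1 reached 20 CPM in the wild-type epithelium and 2 in that labelled Pax6het. The like sums thus do not show that each mural marker was alike. Keratocyte markers summed to 50.7 and 187 CPM in the epithelium, 3 of 8 reaching 20 CPM in the second library and 0 of 8 in the first. Another 115 and 1134 cells had been set aside for markers of other classes, and with those over the keratin limit put back, an alternative added after the data were seen, the counts stayed at 7 higher and 2 lower. In cells thinned to 5000 UMIs, with 1580 and 787 epithelial cells left out as too shallow, Ndufa4l2 was found in 0.160% and 9.71% of epithelial cells (0.295% and 15.4% unthinned). In blood endothelial cells it was found in 0 of 33 (95% upper limit 10.6%) and in 1.56% of 192. Egln3 was found in 87.9% and 53.2% of thinned epithelial cells (90.6% and 72.7% unthinned), and in 18.2% and 5.21% of thinned blood endothelial cells. Pfkp was found in 2.68% and 18.2% of thinned epithelial cells (5.90% and 36.2% unthinned), and blood endothelial cells, at 42.4% and 40.1%, are not a background for it. Median depths were 11300 and 13719.5 UMIs in the epithelium and 5090 and 7170 UMIs in blood endothelial cells.

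Comparing cells of each state, cut by the same limits, narrowed several of these ratios. Cells of the same state still differed in keratins between the libraries. The Gpha2-positive cells, 385 and 1979, were not alike in other genes, with Krt12 at 10306 and 191 CPM and the 8 keratocyte markers summing to 57.6 and 203 CPM (1 and 3 of 8 past 20 CPM). Their part in the ratios was not tested. In this state 24 members reached 20 CPM. Of these 2 were higher (7.6% of genes were) and 2 lower (5.1% were), both near the shares of all genes. The higher ones were Ndufa4l2, at 1.63 CPM (7 UMIs) and 44.2 CPM (1215 UMIs), a ratio of 27.2 (13.2 to 67.8), and Ddit4, at 8.83 and 28.8 CPM (3.27, 2.36 to 4.65). The lower ones were Adm, at 116 and 44.9 CPM (0.387, 0.348 to 0.430), and Aldoc, at 29.0 and 13.5 CPM (0.466, 0.380 to 0.576). Egln3, at 376 and 194 CPM, was just inside 2-fold (0.516, 0.488 to 0.546), and crossed it under TMM scaling, which left 3 members lower. No enzyme was 2-fold higher in this state, though 9 of 15 were at least 1.5-fold higher (17.7% of genes were), with a median log2 ratio of 0.63 against 0.10 for all genes. Pfkp was at 31.1 and 51.6 CPM (1.66, 1.39 to 1.99) and Ldhb at 19.3 and 34.0 CPM (1.76, 1.41 to 2.24), far closer than in the whole epithelium. Pdk1 was at 49.7 and 30.2 CPM (0.608, 0.522 to 0.709).

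The Krt12-high states kept wider ratios for Pfkp and Ldhb. In Krt12-high Krt14-high cells 5 of 22 members were higher (8.15% of genes were) and 1 was lower (4.59%). Pfkp stood at 5.79 and 21.1 CPM (3.64, 2.89 to 4.55), Ldhb at 7.63 and 30.1 CPM (3.95, 3.25 to 4.78) and Pfkl at 17.5 and 46.4 CPM (2.65, 2.29 to 3.07). Ndufa4l2 had 9 and 296 UMIs, or 0.188 and 57.2 CPM. Slc2a1 stood at 164 and 331 CPM (2.03, 1.92 to 2.13) and was inside 2-fold with edgeR or DESeq2 factors. The lower member was Egln3, at 463 and 196 CPM (0.423, 0.397 to 0.450). Adm, in contrast to its ratio in the whole epithelium, stood at 317 and 205 CPM here (0.646, 0.607 to 0.688). The enzymes had a median log2 ratio of 0.71 against 0.03 for all genes, and 10 of 14 were at least 1.5-fold higher (16% of genes were). Among keratins, Krt14 stood at 1773 and 4115 CPM here, Krt15 at 617 and 1533 CPM and Krt5 at 5559 and 4769 CPM. Markers of other cell types also differed, the 8 keratocyte genes summing to 42.4 and 167 CPM. Of 14 immediate early genes, read as markers of handling, 0 were higher and 4 lower in this state, with a median log2 ratio of -0.85, and Zfp36 stood at 1914 and 462 CPM. Their part in these ratios was not tested.

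The remaining states were thin in 1 of the libraries, and their cells also differed in keratins. Krt14-low cells held Krt15 at 1123 and 7733 CPM, and Krt13-positive cells held Krt14 at 167 and 1314 CPM. Krt12 stood at 1727 and 61.9 CPM in Krt4-positive cells and at 2627 and 117 CPM in the other Krt12-low cells. The part of these differences in the ratios was not tested. In Krt12-high Krt14-low cells, 32 of them in the library labelled Pax6het, 4 of 23 members past 20 CPM were higher (8.15% of genes) and 1 lower (7.82%). The 4 were Pfkl, Ldhb, Ndufa4l2 and Ddit4. In Krt13-positive cells, 40 of them in that library, 7 of 21 were higher (14.2%) and 1 lower (6.16%). TMM scaling left 3 higher, while all genes went from 847 higher and 367 lower to 543 and 628. The 7 were Pfkl, Gapdh, Pkm, Ldha, Ldhb, Slc2a1 and Ddit4. In Krt12-low Krt4-positive cells, 31 of them wild type, 9 of 22 were higher (19.6%) and 1 lower (4.88%). The 9 were Pfkp, Tpi1, Gapdh, Pgk1, Ldha, Ldhb, Slc2a1, Ndufa4l2 and Ddit4. In the other Krt12-low cells, 56 of them wild type, 11 of 23 were higher (13.6%) and 0 lower (8.41%). The 11 were Gpi1, Pfkp, Aldoa, Tpi1, Gapdh, Pgam1, Pkm, Ldha, Egln1, Ndufa4l2 and Ddit4. Egln3 was lower in each of these states but the last, where it stood at 382 and 191 CPM (0.501, 0.428 to 0.592). Ddit4 was higher in each of the 4, and Ldha was above 2-fold in 3 of them.

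**Figure D2:**
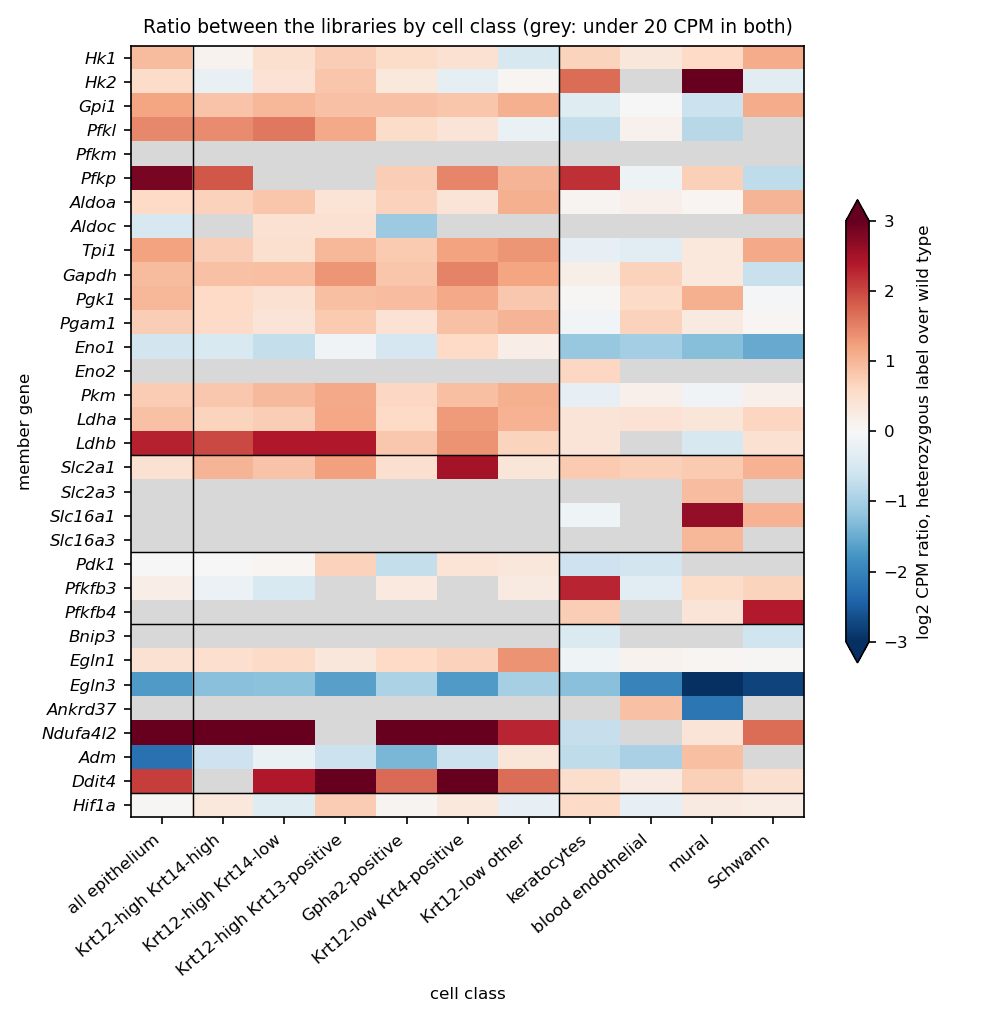
Log2 ratio of the library labelled Pax6het over wild type for each member (rows, by role) in each cell class (columns); grey cells had under 20 CPM in both libraries, colours stop at 3 on either side, and a wild-type count of 0 was set to 3 UMIs. Most enzyme rows are red across the epithelial states and pale in keratocytes and blood endothelial cells, and Egln3 is blue throughout.

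Within the wild-type epithelium, levels were also read across the Krt12-high states. Slc2a1 stood at 164 CPM in Krt12-high Krt14-high cells, at 69.0 CPM in Krt14-low cells and at 37.6 CPM in Krt13-positive cells, ratios to the first of 0.422 (0.404 to 0.440) and 0.230 (0.211 to 0.251). Hif1a stood at 181, 113 and 57.8 CPM and Pfkfb3 at 41.5, 23.2 and 14.1 CPM in the same order. Egln3 stood at 463, 762 and 797 CPM, inside 2-fold. Adm had no such order, at 317, 204 and 347 CPM. Of the 19 members past 20 CPM in the last of these comparisons, 0 were higher (9.58% of genes were) and 4 were lower (23.4% were) in Krt13-positive than in Krt14-high cells: Slc2a1, Pdk1, Pfkfb3 and Hif1a. That share is near the one of all genes, whose median log2 ratio was -0.39. Between Krt14-low and Krt14-high cells 1 of 19, Slc2a1, was lower (3.1% of genes were) and 0 were higher (2.18%). The Krt14 states were divided by a single limit, and all states of a library share its free RNA.

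In the library labelled Pax6het, Slc2a1 had the same order and Hif1a was again highest in Krt14-high cells. Slc2a1 stood at 331, 126 and 87.8 CPM and Hif1a at 225, 88.2 and 98.1 CPM in Krt14-high, Krt14-low and Krt13-positive cells. The intervals of the last 2 Hif1a values overlapped (64.8 to 117 and 79.4 to 120 CPM). Egln3 spread less there, from 196 to 327 CPM. Ndufa4l2 stood at 57.2, 24.4 and 4.13 CPM. Relative to Krt14-high cells, 2 of 24 members were higher (6.08% of genes were) and 4 lower (8.46%) in Krt14-low cells, and 2 of 24 were higher (7.85%) and 5 lower (15.5%) in Krt13-positive cells. Slc2a1, Hif1a and Ndufa4l2 were lower in both, and Aldoc and Ddit4 were higher in both. The lower members also held 1 regulatory kinase in Krt14-low cells. In Krt13-positive cells they held 1 enzyme and, counting Ndufa4l2, 2 HIF targets. In Krt12-low Krt4-positive cells of that library Slc2a1 stood at 58.0 CPM, against 167 CPM in its Gpha2-positive cells (0.348, 0.325 to 0.372). It was 1 of 4 members of 23 that were lower there (13.6% of genes were), with Pfkp, Pfkfb3 and Adm, and 0 were higher (9.54%). The other Krt12-low cells differed from Gpha2-positive cells in 0 of 23 members, with 1.36% of genes higher and 0.615% lower.

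Pfkp was also uneven within the wild-type library. It stood at 31.1 CPM in Gpha2-positive cells and at 5.79 CPM in Krt12-high Krt14-high cells of the same library, a ratio of 5.38 (4.34 to 6.63). It was the 1 member of 21 that was higher there (4.3% of genes were), and Adm, at 116 against 317 CPM, was the 1 that was lower (1.9% were). In the library labelled Pax6het the same 2 states held Pfkp at 51.6 and 21.1 CPM and Adm at 44.9 and 205 CPM. Hk1 and Ddit4 were also higher in Gpha2-positive cells there, so 3 members of 23 were higher (7.05% of genes were) and Adm was the 1 lower (4.99%).

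**Figure D3:**
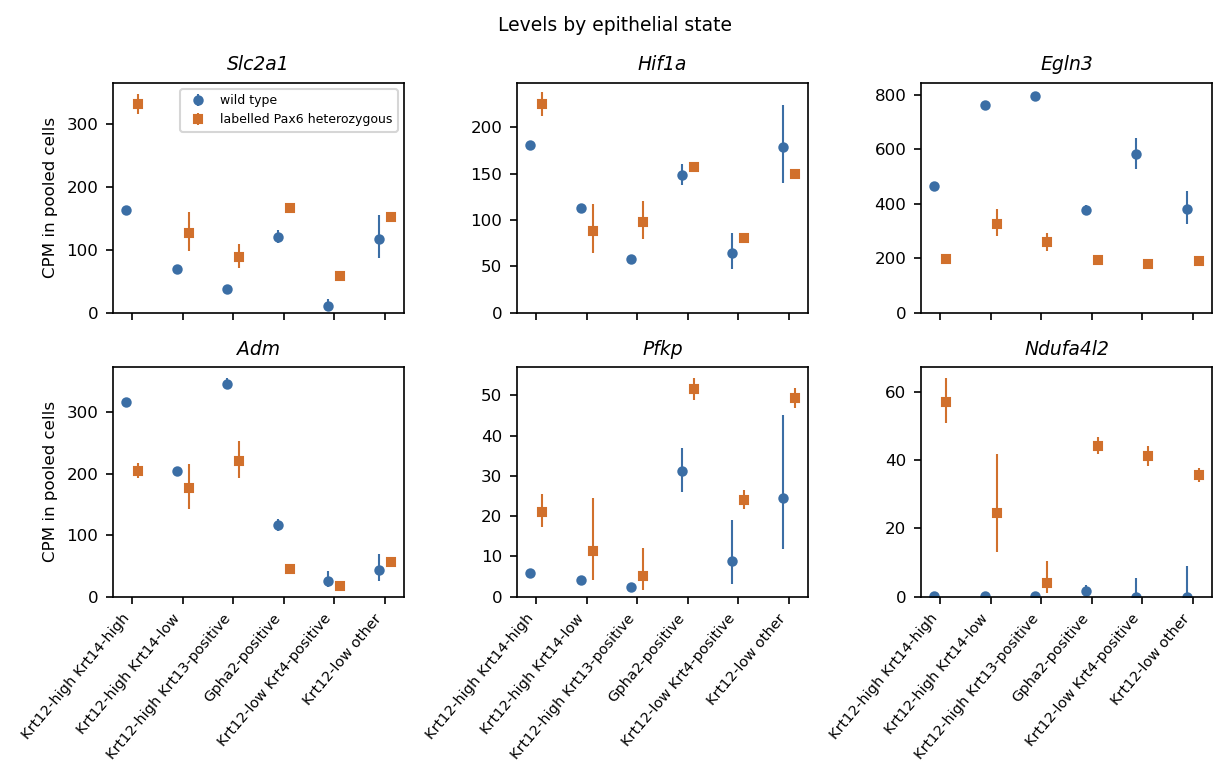
CPM of 6 members in 6 epithelial states of the wild-type library (circles) and the library labelled Pax6het (squares), with exact 95% Poisson intervals. Slc2a1 and Hif1a are highest in Krt12-high Krt14-high cells among the wild-type Krt12-high states, Egln3 is at least 2-fold lower in the second library in 4 of the 6 states and within 2-fold in Gpha2-positive and other Krt12-low cells, and Ndufa4l2 is near 0 in all 6 wild-type states.

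The heterozygous label covered cells with Xist and cells with Y-linked transcripts, and the members were read in each. Egln3 stood at 193 CPM in both kinds of epithelial cell, and Gpi1, Tpi1, Gapdh, Pgk1, Ldha and Pkm had ratios between them from 0.942 to 1.07. Hk2 stood at 127 CPM in cells with Xist and at 201 CPM in cells with Y-linked UMIs (ratio 1.58, 1.52 to 1.64). Adm stood at 70.1 and 40.0 CPM (0.570, 0.534 to 0.609), Ddit4 at 18.9 and 30.5 CPM (1.61, 1.47 to 1.77) and Ndufa4l2 at 46.2 and 32.1 CPM (0.694, 0.643 to 0.749). Against wild-type cells with Xist, the Hk2 ratio of cells with Xist was 1.13 (1.09 to 1.17) and Ddit4, at 18.9 CPM, did not reach 20 CPM, which left 6 members higher and 2 lower. The share of all genes is not given for this comparison. Sex and animal cannot be told apart here.

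The class called keratocytes was cut by marker limits and read as cells of the stroma. In this class Hk2, Pfkp and Pfkfb3 were higher, and most enzymes were within 2-fold. The Pfkp call was not kept in its Kera-high cells, described below. Keratocytes numbered 646 and 1063. Of 27 members past 20 CPM, 3 were higher (9.09% of genes were) and 2 lower (5.59%), both near the shares of all genes. Hk2 stood at 148 CPM (842 UMIs) and 478 CPM (6335 UMIs), a ratio of 3.22 (2.99 to 3.46). Pfkfb3 stood at 22.7 and 110 CPM (4.85, 4.05 to 5.85), and Pfkp at 6.0 and 27.5 CPM (4.58, 3.22 to 6.71). The lower members were Eno1, at 51.7 and 23.7 CPM (0.458, 0.390 to 0.539), and Egln3, at 27.2 and 11.3 CPM (0.417, 0.330 to 0.525). The median log2 ratio of the 15 enzymes was 0.09, against -0.14 for all genes. Gapdh, Aldoa, Pgk1, Pgam1 and Tpi1 had ratios from 0.847 to 1.14. Hif1a stood at 249 and 369 CPM (1.48, 1.39 to 1.57) and Slc2a1 at 111 and 191 CPM (1.72, 1.58 to 1.88).

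The keratocytes of the libraries differed in makeup. Kera, keratocan, was counted at 9305 CPM in wild-type keratocytes and 4615 CPM in those labelled Pax6het. Divided at 50 Kera UMIs per 10000, a limit chosen after the data were seen, 502 and 393 cells were Kera-high and 144 and 670 Kera-low. Whether the Kera-low cells are keratocytes or other cells of the stroma was not tested. Hk2 stood at 141 and 464 CPM in the Kera-high cells (3.28, 3.02 to 3.57) and at 191 and 490 CPM in the Kera-low cells (2.57, 2.19 to 3.03). Pfkfb3 stood at 19.4 and 124 CPM (6.39, 5.15 to 8.0) and at 42.6 and 98.4 CPM (2.31, 1.65 to 3.35). Pfkp did not reach 20 CPM in Kera-high cells (3.92 and 9.96 CPM) and stood at 18.2 and 43.0 CPM in Kera-low cells (2.35, 1.41 to 4.26). Hk2 and Pfkfb3 thus kept a ratio above 2-fold on both sides of the limit. The median log2 ratio of the enzymes was -0.01 in Kera-high cells, against -0.20 for all genes, and 0.43 in Kera-low cells, against -0.14, with 12 of 15 enzymes above 0. Eno1 was lower in Kera-high cells (0.355, 0.284 to 0.443), and its interval in Kera-low cells spanned 1 (0.756, 0.513 to 1.15). In Kera-high cells 2 of 26 members were higher (8.5% of genes were) and 3 lower (9.01%), both near the shares of all genes. In Kera-low cells 5 of 26 were higher (6.82%) and 1 lower (6.98%). The Kera-high calls were Hk2 and Pfkfb3, and Eno1, Egln3 and Adm on the lower side. The Kera-low calls were Hk2, Pfkp, Slc2a1, Pfkfb3 and Ddit4, and Egln3 on the lower side. In keratocytes labelled Pax6het, Hk2 stood at 339 CPM in 241 cells with Xist and at 508 CPM in 658 cells with Y-linked UMIs, and Pfkfb3 at 78.8 and 116 CPM. With only the cells with Xist, 3 members were higher and 0 lower, Eno1 standing at 51.9 and 27.8 CPM. Of the 14 immediate early genes 5 were higher and 0 lower in keratocytes. Their part in these ratios was not tested.

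**Figure D4:**
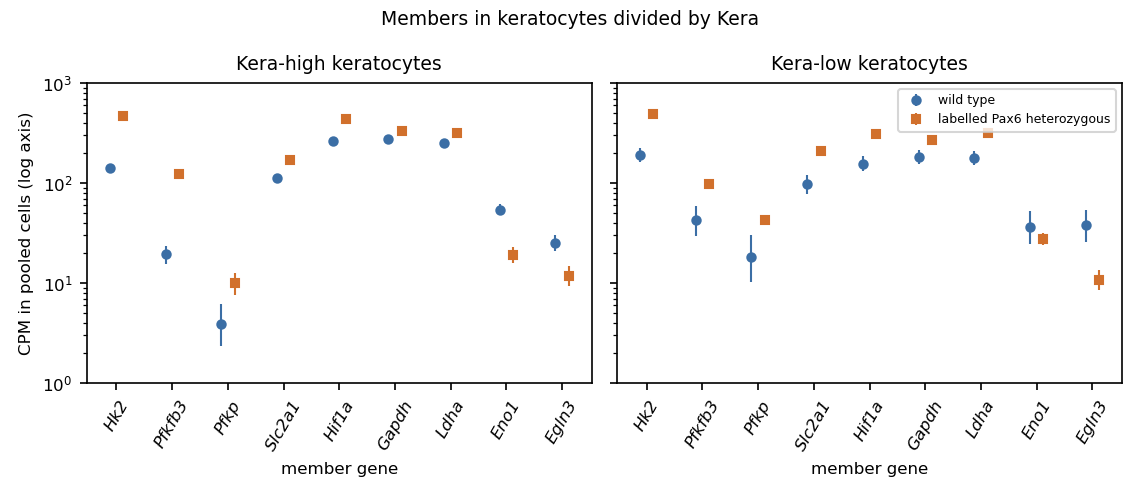
CPM (log axis) of 9 members in Kera-high (left) and Kera-low (right) keratocytes of the wild-type library (circles) and the library labelled Pax6het (squares), with exact 95% Poisson intervals. Hk2 and Pfkfb3 are higher and Egln3 is lower in the second library on both sides, while Slc2a1 is higher in Kera-low cells, Eno1 is lower in Kera-high cells, and Hif1a is within 2-fold on both sides.

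Blood endothelial cells, 63 and 263, showed few differences. Of 21 members past 20 CPM, 0 were higher (10.2% of genes were) and 2 lower (4.33%), and TMM scaling added Adm to these. Eno1 stood at 90.4 and 44.3 CPM (0.491, 0.328 to 0.751) and Egln3 at 54.8 CPM (20 UMIs) and 13.6 CPM (31 UMIs), a ratio of 0.249 (0.137 to 0.460). Hif1a was at 482 and 409 CPM, Pfkfb3 at 227 and 182 CPM, while Pfkp was at 134 and 120 CPM. The intervals of these last 3 ratios spanned 1. Hk2 had 3 UMIs in each library.

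Mural cells, 47 and 393, had a low wild-type depth of 177729 UMIs in all. Of 27 members past 20 CPM, 3 were higher (13.1% of genes were) and 3 lower (11.1%), both near the shares of all genes. Hk2 had 1 UMI and 263 UMIs, or 5.63 and 97.1 CPM (17.3, 3.07 to 684), and Slc16a1 1 and 95 UMIs (6.24, 1.09 to 249). Pgk1 stood at 33.8 and 70.2 CPM (2.08, 0.937 to 5.73), with an interval that spans 1. The lower members were Eno1 (10 and 63 UMIs; 0.414, 0.211 to 0.904), Egln3 (15 and 23 UMIs; 0.101, 0.0503 to 0.207) and Ankrd37 (5 and 17 UMIs; 0.223, 0.0790 to 0.774). Keratocyte markers summed to 878 and 2104 CPM in mural cells.

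Egln3 was lower in all 4 classes compared outside the epithelium. It stood between 27.2 and 84.4 CPM in wild-type keratocytes, blood endothelial, mural and Schwann cells, and between 8.49 and 13.6 CPM in the same classes labelled Pax6het. The corneal keratin Krt12, which these cells should lack, stood at 1073 CPM in wild-type and 11.0 CPM in Pax6het-labelled blood endothelial cells, and at 801 and 41.9 CPM in keratocytes. The part of free RNA in the Egln3 ratios of these classes was not tested. Eno1 was also lower in these 4 classes, from 51.7 to 90.4 CPM in the wild type and from 22.0 to 44.3 CPM in the other library. In keratocytes neither Egln3 nor Eno1 was called lower with only cells with Xist. The Eno1 ratio in Kera-low keratocytes was 0.756 (0.513 to 1.15).

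Schwann cells, 47 and 174, were compared with 8 of 23 members higher (16.2% of genes) and 2 lower (9.79%), on 143708 wild-type UMIs. The higher ones were Hk1, Gpi1, Aldoa, Tpi1, Slc2a1, Slc16a1, Pfkfb4 and Ndufa4l2, and the interval spanned 1 for each of these but Ndufa4l2 (3.21, 1.05 to 16.0). The lower ones were Eno1 and Egln3. Keratocyte markers summed to 438 and 1706 CPM in these cells (5 and 7 of 8 past 20 CPM) and endothelial markers to 216 and 510 CPM. Their part in these ratios was not tested. Their clearest feature was shared by both libraries: Ldhb made up 48.5% (30.8 to 66.5) and 45.3% (39.6 to 51.0) of lactate dehydrogenase UMIs, against 2.23% and 5.84% in the epithelium. Other classes also had isozyme makeups of their own. Pfkp made up 75.4% (63.1 to 85.2) and 75.0% (70.2 to 79.4) of phosphofructokinase UMIs in blood endothelial cells. In Gpha2-positive cells it made up 42.9% (37.4 to 48.6) and 48.9% (47.1 to 50.8), and in keratocytes 11.3% (7.98 to 15.5) and 47.9% (44.3 to 51.5). Within Kera-low cells, where most keratocytes labelled Pax6het fell, Pfkp was higher in both libraries than in Kera-high cells. Hk2 made up 85.2% and 81.3% of hexokinase UMIs in the epithelium and 7.50% (1.57 to 20.4) and 1.02% (0.211 to 2.95) in blood endothelial cells.

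**Figure D5:**
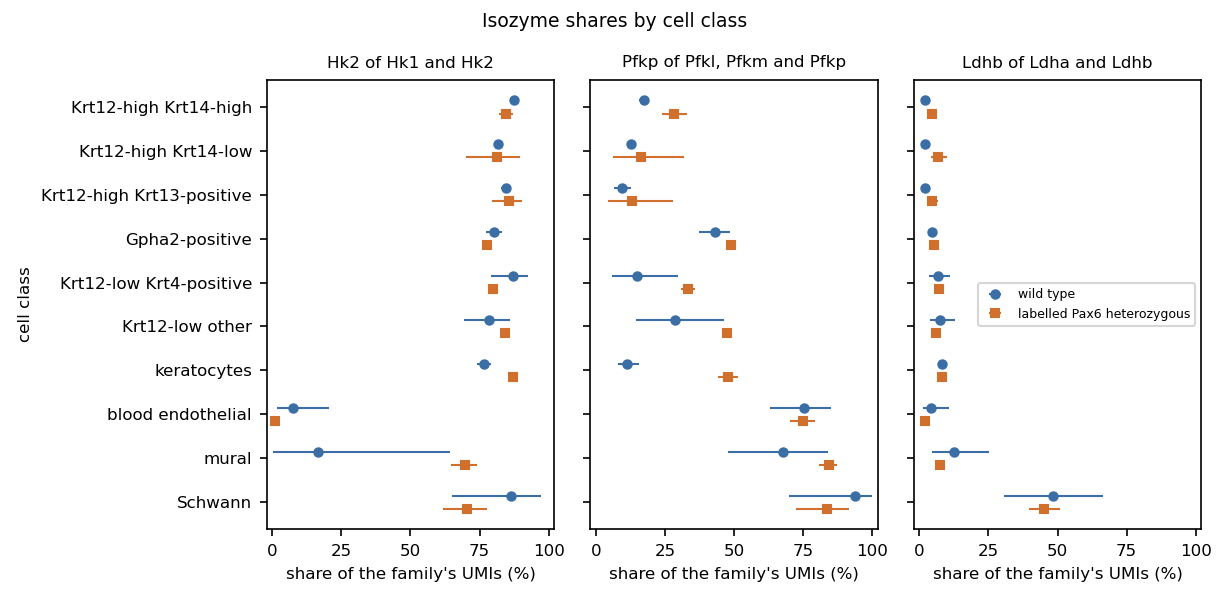
Share of UMIs held by Hk2, Pfkp and Ldhb within their families (horizontal axis, percent) in 10 cell classes of the wild-type library (circles) and the library labelled Pax6het (squares), with exact 95% Clopper-Pearson intervals. Pfkp lies near 75% in blood endothelial cells of both libraries and is at 11.3% and 47.9% in keratocytes; Ldhb is at 48.5% and 45.3% in Schwann cells and at most 12.5% in the other classes shown.

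Other genes of the pathway, read as lists chosen with earlier results known, gave a mixed picture in the epithelium. Of 25 other HIF targets 18 reached 20 CPM, of which 7 were higher and 1 was lower. Their median log2 ratio was 0.45. The 4 furthest apart were Car12, a carbonic anhydrase, at 1.98 and 104 CPM (52.6, 46.0 to 60.5), Vegfa, the vessel growth factor, at 2.11 and 39.4 CPM (18.7, 16.4 to 21.5), P4ha2, a collagen prolyl hydroxylase, at 4.14 and 28.6 CPM (6.91, 6.25 to 7.65), and the transferrin receptor gene Tfrc, at 6.92 and 36.9 CPM (5.34, 4.93 to 5.79). Bnip3l, a mitophagy receptor, was the 1 lower, at 280 and 126 CPM (0.451, 0.441 to 0.461). In Gpha2-positive cells Vegfa stood at 10.2 and 50.6 CPM (4.95, 3.67 to 6.85) and Car12 at 42.7 and 139 CPM (3.26, 2.81 to 3.80). Of all genes 13.5% were higher and 6.51% lower, so the single lower target is near the share of all genes.

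Among 6 genes that regulate HIF, 3 reached 20 CPM and 1 was higher. Epas1, which encodes HIF-2 alpha, stood at 210 and 567 CPM (2.69, 2.65 to 2.74) in the epithelium but at 622 and 714 CPM (1.15, 1.10 to 1.20) in Gpha2-positive cells. Of 32 other genes of glycolysis, lactate and pyruvate, 8 reached 20 CPM, 0 were higher and 1 was lower, the mitochondrial pyruvate carrier Mpc2 at 467 and 184 CPM (0.394, 0.386 to 0.401). Of the pentose phosphate genes 7 of 8 reached 20 CPM, and Tkt, transketolase and an abundant protein of the cornea, was the 1 that differed, at 5711 and 1320 CPM (0.231, 0.230 to 0.233). In Krt12-high Krt14-high cells the Tkt ratio was 0.845, and in Gpha2-positive cells 0.279. Of the 13 citrate cycle genes 2 were higher, Idh3b and Fh1, and 0 lower, and of 14 immediate early genes Nr4a1 was higher and Zfp36 lower. Of all genes in the epithelium 13.5% were higher and 6.51% lower. The citrate cycle and immediate early counts are near those shares, and the other lists of this paragraph are too short to set against them.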

How the data were processed

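Unique molecular identifier (UMI) counts per gene and barcode were deposited by the authors as 1 filtered matrix per library, made with Cell Ranger 8.0.0 per the file headers, on GRCm38 per the submitters' processing notes. The values are raw counts with no normalisation. The library kit, its strand setting and any doublet removal are not given in the sources used here. The members, gene lists and cell limits were chosen with earlier results of these data known.

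Kept cells had at least 500 genes, at least 1000 UMIs and no more than 20% of UMIs from mitochondrial genes. Classes were cut by marker limits and not by clustering. No doublet caller was run. A class outside the epithelium needed at least 4 of its 8 markers and a keratin sum under a second limit. This limit was set within each library, at 17.6 UMIs per 10000 in the wild type and 36.0 in the library labelled Pax6het. Classes outside the epithelium were thus cut at different keratin limits in each library. Barcodes with at least 4 of the 8 markers of such a class but over its limit, or tied between classes, were set aside. UMIs were summed per class and library, divided by the class total without mitochondrial genes, and given as counts per 1000000 (CPM). A class needed 30 cells in each library. Ratios have exact conditional binomial 95% intervals, levels Poisson intervals and shares Clopper-Pearson intervals, all for counting error only. Where 1 library had no UMI, 3 UMIs stood in for the ratio. Each comparison between the libraries named every member past 20 CPM that was at least 2-fold apart, and of each other list the 4 genes furthest apart. Comparisons of states within the library labelled Pax6het did not name every such member. Alternatives scaled with edgeR 4.0.16 or DESeq2 1.42.0 factors only and moved each limit. The ratio code was tested on simulated data. Near-identical copies were searched with BLAST 2.17.0. Promoter windows came from RefSeq, GRCm38.p6. Other software was Python 3.11.15, numpy 2.4.6, scipy 1.17.1, pandas 2.3.3, matplotlib 3.10.9 and R 4.3.3.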

Additional observations from a re-analysis of the deposited data

How the results depend on the processing

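With 1 library per genotype, no alternative could measure the spread between animals, and depth limited the classes with under 100 cells in either library. No paired analysis was possible because each genotype had 1 library. Of the counts of members by class, 96 from planned and 4 from added alternatives stayed within 1.5 times the main count and 20 did not. Other results moved more often. Of these, 139 from planned and 23 from added alternatives were labelled as moved, and 147 and 29 as the same. In the epithelium the 7 members higher became 12 with a keratin limit of 100 per 10000, 12 with no CPM minimum and 2 with a minimum of 50 CPM. In Krt13-positive cells the 7 higher became 3 with TMM and 3 with DESeq2 factors. In Krt4-positive cells DESeq2 factors gave 5 higher and 2 lower, and 2 were lower with the Krt12 limit at 100 or the Gpha2 limit at 10. In the other Krt12-low cells 1 member was lower with DESeq2 factors, with the Krt12 limit at 100, with the Krt13 and Krt4 limits at 30, or with only cells with Xist. There the 11 higher became 3 with the Gpha2 limit at 10 and 7 with only cells with Xist. The Krt13 and Krt4 limits at 30 left 3 higher in Krt14-high and 2 in Krt14-low cells. With only cells with Xist, Gpha2-positive cells had 1 lower, keratocytes 0 lower and mural cells 5 higher. The cause of these changes was not tested. Apart from the TMM counts of all genes given above, shares of all genes under these alternatives are not given. The counts of members are thus not read against them. Over the settings run in the epithelium, the log2 ratio ranged from 2.51 to 3.09 for Pfkp, from 1.97 to 2.38 for Ldhb, from -2.04 to -1.57 for Egln3, from -2.85 to -1.93 for Adm and from 6.72 to 7.83 for Ndufa4l2. That of Hif1a, from -0.30 to 0.44, changed sign.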
